A study of Mus musculus with 12 samples.

Results

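Amphiregulin (Areg) was examined in RNA-Seq of the mouse retina together with the ligand and receptor family it belongs to. The set comprised 10 of the 50559 genes in the deposited count table, taken by symbol: the 7 ligands Areg, Ereg, Hbegf, Btc, Egf, Tgfa and Epgn, and the 3 receptors Egfr, Erbb2 and Erbb3. The family was chosen by the level of Areg in the APB5 libraries in earlier results of the same data, and its other genes by their place in the family with those results known, so values and fold changes of the 10 genes are a description and carry no p-value. All mice were wild-type C57BL6/J of mixed sex, and retinas were collected on day 28. On day 1 the pups received 30 µg of either a control rat IgG (groups IgG and IgG+Mino) or APB5 (groups APB5 and APB5+Mino), a rat antibody against PDGFRβ that blocks pericyte recruitment to growing vessels. The 2 Mino groups were also given the tetracycline antibiotic minocycline at 45 mg/kg daily from day 5 to day 27. Each group had 3 libraries, which the study's legend gives as separate mice. The model is limited in that APB5 can reach every PDGFRβ-bearing cell of the pup and that the whole retina was sequenced. A lower level in such bulk RNA cannot be told apart as fewer cells of a type or less RNA per cell.

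Total counts ran from 52740545 to 59411044 per library, and 3 counts in a library, taken as the floor, corresponded to 0.0448 to 0.0587 counts-per-million (CPM). Rod markers (8 genes) summed to 47400 to 72120 CPM in 11 libraries. APB5 replicate 3 stood apart, with a rod sum of 12520 CPM, so values that rest on it are given without it as well. Xist, which is transcribed from the inactive X chromosome, had 47210 to 141589 counts in 5 libraries (all of IgG, and replicate 3 of APB5 and of APB5+Mino) and no more than 38 counts in each of the remaining 7. Sex therefore differed between the groups and cannot be told apart from treatment in IgG+Mino against IgG. Nor can it fully be told apart in APB5 against IgG or in APB5+Mino against IgG+Mino. Pdgfrb, the target of the antibody, was at 12.8 to 20.1 CPM in 11 libraries and at 38.0 CPM in APB5 replicate 3, which does not check the labels, since the antibody acts on the protein.

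The EGF receptor family comprises EGFR, ERBB2, ERBB3 and ERBB4. Their ligands are made as membrane-anchored precursors that metalloproteases such as ADAM17 and ADAM10 release, and ligand binding joins receptors in pairs that signal through RAS and ERK and through PI3K and AKT. ERBB2 binds no ligand of its own, and ERBB3 has little kinase activity. Amphiregulin, epiregulin, HB-EGF, betacellulin and TGFα are themselves induced in many tissues by growth factor signaling and injury, and in the retina Müller glia are a known site of EGF receptor expression.

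Of the ligand genes, 4 lie side by side on chromosome 5 (GRCm39), in the order Epgn at 91175323-91183074, Ereg at 91222157-91241505, Areg at 91287451-91296291 and, on the other strand, Btc at 91505120-91550883. The others tested for motifs are Egf on chromosome 3, Tgfa on chromosome 6 and Egfr and Erbb2 on chromosome 11. The 250 bases before the RefSeq start of Areg are shown because its ratio of APB5 to IgG was the largest among the members with a fit. They come from the RefSeq promoter table (GRCm38.p6) and match GRCm39 exactly once, at chr5:91287208-91287457 on the plus strand. Capitals mark a cAMP response element (CRE, TGACGTCA), the palindrome that CREB and ATF proteins bind, which begins 61 bases before the start.
Areg promoter: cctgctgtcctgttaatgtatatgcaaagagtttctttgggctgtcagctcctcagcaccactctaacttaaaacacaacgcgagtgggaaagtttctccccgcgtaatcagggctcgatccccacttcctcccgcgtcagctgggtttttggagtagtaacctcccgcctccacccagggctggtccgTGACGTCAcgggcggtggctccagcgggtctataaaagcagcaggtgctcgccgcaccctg
Of 27025 promoter windows of this length, 439 (1.62%) held that CRE on either strand. The AP-1 motif TGANTCA, found in 6.87% of windows, was in none of the windows of Areg, Btc, Egf, Epgn, Tgfa, Egfr and Erbb2. The TEAD motif GGAATG, found in 12.6%, was only in that of Erbb2, 88 bases before the start. None of the 3 motifs overlaps another in these windows, and a match is a description of the letters only. Ereg and Erbb3 had no entry, and the window of Hbegf was not read.

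Areg was scarcely detected outside the APB5 group. Its counts in replicates 1 to 3 were 9, 5 and 34 in IgG (0.157, 0.0875 and 0.587 CPM), 7, 20 and 17 in IgG+Mino (0.127, 0.354 and 0.316 CPM), 345, 64 and 789 in APB5 (6.24, 1.17 and 11.8 CPM), and 16, 7 and 7 in APB5+Mino (0.286, 0.137 and 0.132 CPM). Every APB5 library lay above every library of the other groups, and the APB5 libraries themselves spanned a wide range, with replicate 2 nearest to the controls. The mean was 6.40 ± 5.31 CPM in APB5 against 0.277 ± 0.271 CPM in IgG (SD, n = 3), a ratio of 23.1 and a fitted log2 fold change of 4.39 ± 1.00 (SE). In APB5+Mino it was 0.185 ± 0.0878 CPM, 34.6-fold under APB5, with a log2 fold change of −4.88 ± 0.91. The groups without the blocking antibody did not separate, at −0.06 ± 0.69 for IgG+Mino against IgG, and neither did the 2 minocycline groups, at −0.44 ± 0.52 for APB5+Mino against IgG+Mino. In each comparison with APB5, Areg passed the filter on low counts through the APB5 libraries, so it could be tested there only because it was high. Over the alternatives the first log2 fold change ran from 3.58 (without APB5 replicate 3) to 5.36 and the second from −5.37 to −3.90.

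**Figure D1:**
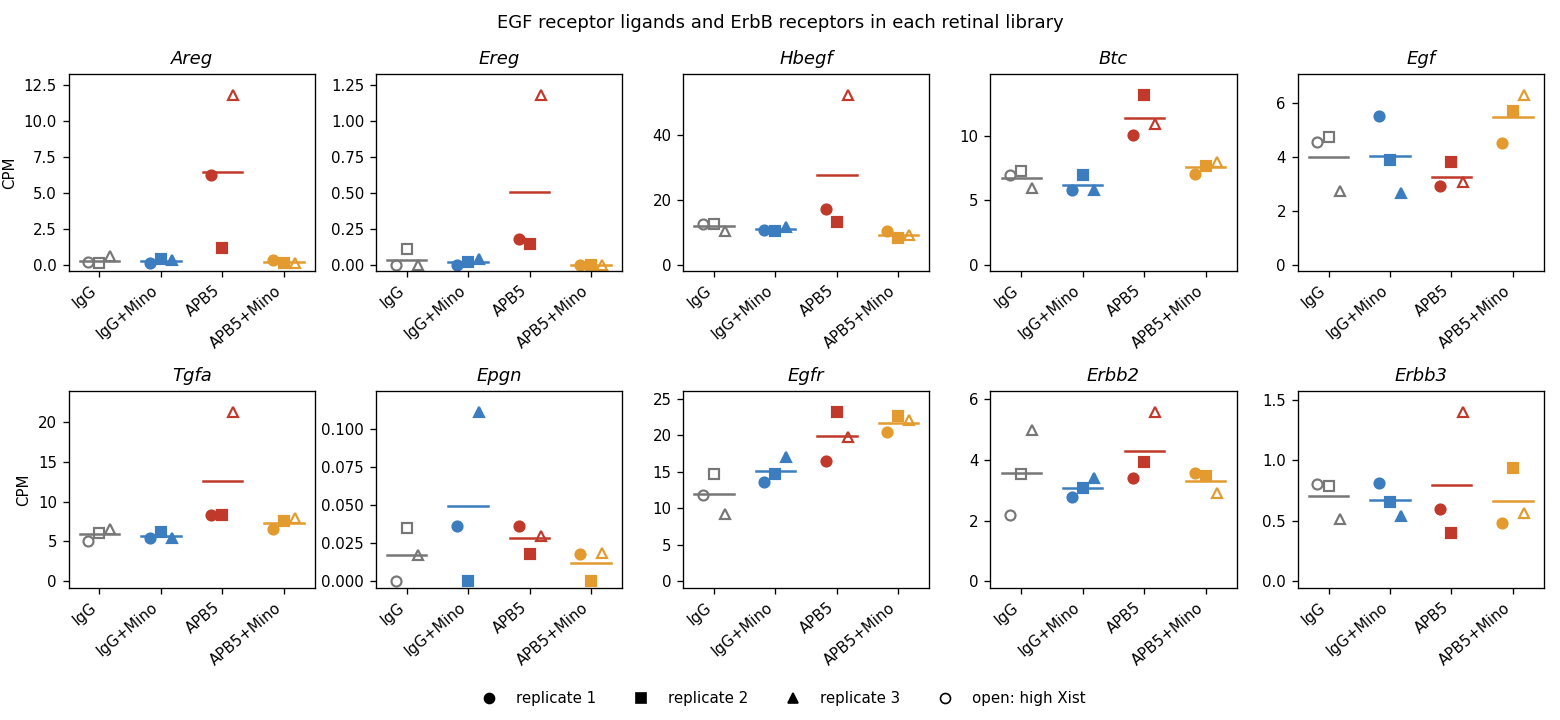
Level of each of the 10 genes in counts-per-million (CPM, linear axes from 0, a scale of its own in each panel) in the 12 libraries by group. Points are libraries, shaped by replicate and open where Xist is high, and bars are group means of 3 libraries; all APB5 libraries sit above all others for Areg, Ereg, Btc, Tgfa and Hbegf, and APB5 replicate 3 is far above replicates 1 and 2 for Hbegf, Tgfa and Ereg.

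Ereg encodes epiregulin, a ligand that like amphiregulin is low in resting tissue. It had 10, 8 and 79 counts in APB5, 0, 6 and 0 in IgG, 0, 1 and 2 in IgG+Mino, and none in the 3 APB5+Mino libraries. The APB5 libraries were again the highest, although 2 of them exceeded the best control library by only a few counts. Against a floor of 3 counts per library, APB5 was at least 8.93-fold higher than APB5+Mino. That bound rested on APB5 replicate 3 and was 2.90-fold without it, and the gene did not pass the filter for a test. Epgn (epigen), the remaining gene of the block, had 0 to 6 counts in every library, and a difference was not detectable at this depth.

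Hbegf (chromosome 18), the heparin-binding ligand, was the most abundant ligand per kilobase in IgG. Its CPM were 12.4, 12.5 and 10.3 in IgG, 10.5, 10.4 and 11.7 in IgG+Mino, 17.1, 13.0 and 52.2 in APB5, and 10.3, 8.14 and 9.03 in APB5+Mino. All 3 APB5 libraries were above the rest, but replicate 2 only by a small margin and replicate 3 by a large one. The log2 fold change was 1.24 ± 0.50 for APB5 against IgG and −1.60 ± 0.52 for APB5+Mino against APB5, and without APB5 replicate 3 these were 0.36 and −0.72. Tgfa, which encodes TGFα, had the same form. It was at 5.05, 6.09 and 6.60 CPM in IgG, 5.43, 6.16 and 5.42 in IgG+Mino, 8.37, 8.27 and 21.3 in APB5, and 6.55, 7.58 and 7.97 in APB5+Mino. Here APB5 replicates 1 and 2 were close to each other and to the upper end of APB5+Mino. The log2 fold change of 1.11 ± 0.40 for APB5 against IgG was 0.49 without replicate 3, and that of −0.80 ± 0.39 for APB5+Mino against APB5 was −0.18.

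Btc (betacellulin, which binds both EGFR and ERBB4) showed a difference that no single library carried. It measured 6.94, 7.26 and 5.96 CPM in IgG, 5.85, 7.01 and 5.77 in IgG+Mino, 10.1, 13.2 and 10.9 in APB5, and 7.05, 7.69 and 7.97 in APB5+Mino. APB5 replicate 2, the lowest for Areg and Hbegf, was the highest for Btc. The log2 fold change was 0.77 ± 0.18 for APB5 against IgG, with a range of 0.66 to 0.86 over the alternatives, and −0.61 ± 0.15 for APB5+Mino against APB5, with a range of −0.69 to −0.49. Levels in APB5+Mino remained above those in IgG+Mino in every library, by 0.29 ± 0.13.

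Egf, the founding ligand, went the other way. Its CPM were 4.56, 4.74 and 2.75 in IgG, 5.54, 3.90 and 2.65 in IgG+Mino, 2.91, 3.83 and 3.08 in APB5, and 4.51, 5.70 and 6.32 in APB5+Mino. APB5 lay within the range of IgG (log2 fold change −0.28 ± 0.28), whereas all APB5+Mino libraries lay above all APB5 libraries (0.73 ± 0.21). Egf overlaps Gm55027 on its own strand and 2 genes on the other, and whether counting used the strand is not stated; Ereg, Hbegf, Tgfa, Egfr and Erbb2 likewise each overlap 1 or 2 genes on the opposite strand, whereas Areg, Btc and Epgn overlap none.

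Of the receptors, Egfr was higher in both groups that received APB5. It was at 11.9, 14.7 and 9.19 CPM in IgG, 13.6, 14.7 and 17.0 in IgG+Mino, 16.5, 23.2 and 19.8 in APB5, and 20.4, 22.6 and 22.1 in APB5+Mino. The log2 fold change was 0.74 ± 0.22 for APB5 against IgG and 0.53 ± 0.11 for APB5+Mino against IgG+Mino, with no overlap of the libraries in either, while APB5+Mino and APB5 overlapped (0.12 ± 0.15). Unlike that of Areg, the level of Egfr in APB5+Mino was thus near that in APB5. Erbb2, the partner without a ligand, ranged from 2.19 to 5.59 CPM and overlapped in every comparison, with log2 fold changes between −0.39 and 0.29. Erbb3 (chromosome 10), which couples to PI3K, was low (0.402 to 1.40 CPM) and overlapped as well. Its log2 fold change for APB5 against IgG was 0.20 ± 0.51 and turned to −0.46 without APB5 replicate 3.

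**Figure D2:**
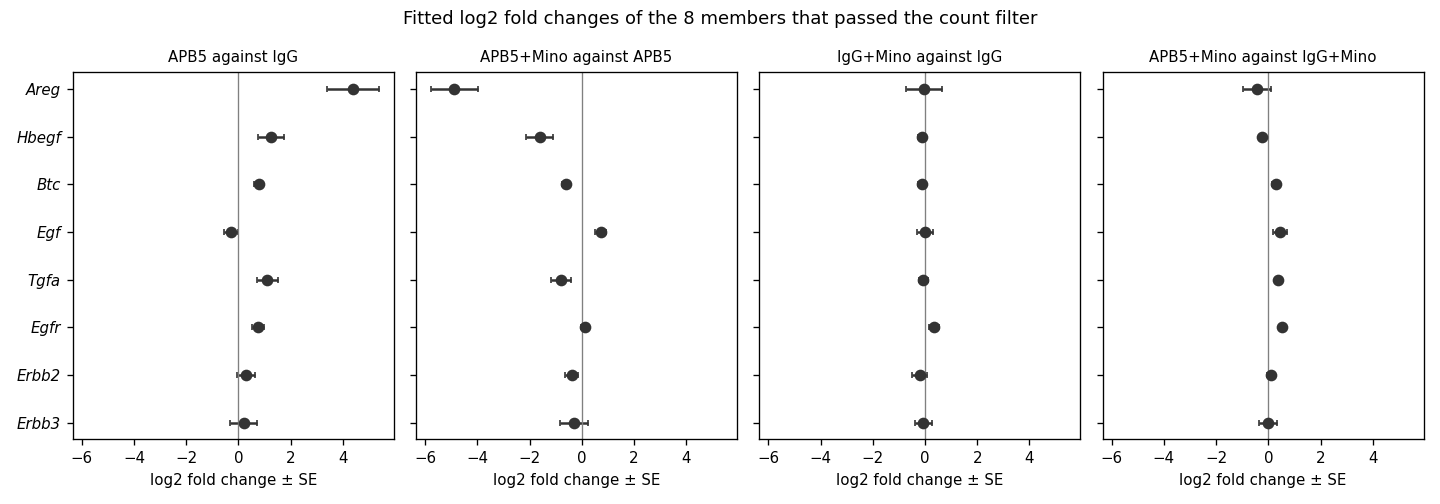
Fitted log2 fold change (points) with its standard error (bars) for the 8 of 10 genes that passed the filter on low counts, in the 4 pairwise comparisons. Areg is at 4.39 for APB5 against IgG and −4.88 for APB5+Mino against APB5, and all values for IgG+Mino against IgG lie between −0.20 and 0.34.

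Counted over the 8 members that could be tested, the libraries of APB5 and IgG did not overlap for 5, all higher in APB5; over all 20350 genes tested 7.79% were higher in this way and 7.89% lower. For APB5+Mino against APB5, 4 members were lower without overlap and 1 higher, beside 22.8% and 23.5% of all genes. The counts were 0 for IgG+Mino against IgG (7.03% higher and 7.35% lower among all genes), and 3 higher and 1 lower for APB5+Mino against IgG+Mino (17.7% and 17.6%). Of all genes tested, 542 (2.66%) had every APB5 library above every other library. These comparisons share the APB5 or IgG libraries, and the members were chosen knowing them, so nothing is read from the counts. Fitted on all 12 libraries, the interaction of APB5 and minocycline was −4.81 ± 1.21 for Areg on the log2 scale.

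The make-up of the ligand pool per unit of transcript length differed between the groups. Summed over the 7 ligands, the level was 5.01 to 5.44 CPM per kilobase in IgG, 4.71 to 5.09 in IgG+Mino and 4.97 to 5.32 in APB5+Mino, and it was 12.2, 7.98 and 25.9 in APB5 replicates 1 to 3. Areg made up 1.32% to 9.59% of this sum in IgG, 2.2% to 5.70% in IgG+Mino and 2.03% to 4.55% in APB5+Mino, and 41.9%, 11.98% and 37.2% in the APB5 libraries. In IgG the order of mean levels was Hbegf (2.30 CPM per kilobase), Btc (1.48), Egfr (1.03), Tgfa (0.865), Erbb2 (0.656), Egf (0.329), Areg (0.227), Erbb3 (0.112), Epgn and Ereg. Neighbours whose libraries overlapped in this order were Egfr and Tgfa, Tgfa and Erbb2, Egf and Areg, Areg and Erbb3, and Epgn and Ereg. In APB5 the mean of Areg (5.24 CPM per kilobase) was second to that of Hbegf (5.37), followed by Btc, Tgfa and Egfr. Each of these 5 overlapped its neighbours among them, and the lowest of them, Egfr, did not overlap Erbb2 after it. In APB5+Mino Areg was again in the seventh place, and Egfr (1.88), Hbegf (1.79) and Btc (1.66) led. Egfr overlapped Hbegf and Hbegf overlapped Btc, whereas Btc did not overlap Tgfa after it.

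Areg was also read within the libraries low and high in Xist. Among libraries low in Xist, APB5 replicates 1 and 2 had 345 and 64 counts, against 7, 20 and 17 in IgG+Mino and 16 and 7 in APB5+Mino. Among those high in Xist, APB5 replicate 3 had 789 counts against 9, 5 and 34 in IgG and 7 in APB5+Mino replicate 3. The high side thus held a single APB5 library, the one that stood apart, and a part of sex in these levels was not tested. In the libraries low in Xist, 2 in each group, the log2 fold change of APB5+Mino against APB5 was −3.90 for Areg, −0.71 for Hbegf and 0.47 for Erbb3.

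Among the summed cell type markers, only the gliosis and the pericyte and smooth muscle sums had every APB5 library above all others. The summed level of 14 gliosis genes was 649, 622 and 5361 CPM in APB5 replicates 1 to 3 and 287 to 390 CPM in the other 9 libraries, so that APB5 was above all others, as for Areg. Replicates 1 and 2 were nearly equal in this sum while their Areg counts were 345 and 64. Single genes of the list went both ways between these replicates. Socs3 was at 26.3 and 10.3 CPM and Cebpd at 71.0 and 43.0 CPM, whereas Gfap was at 130 and 147 CPM and Fgf2 at 78.8 and 105 CPM. These genes were named after their values were seen. The 14 microglia and macrophage genes summed to 70.9, 58.6 and 570 CPM in APB5, 38.0 to 65.9 in IgG, 31.1 to 36.4 in IgG+Mino and 18.5 to 21.5 in APB5+Mino. Pericyte and smooth muscle genes (10) were at 136, 133 and 478 CPM in APB5 and 75.6 to 118 elsewhere. Much of this sum was Rgs5 (89.0, 88.0 and 161.5 CPM in APB5), and in replicate 3 also Acta2 (160.5 CPM). Of the 9 tested genes of that list, 7 had a positive log2 fold change for APB5 against IgG and 2 a negative one. Without overlap of the libraries 2 were higher and 1 lower, beside 7.79% and 7.89% of all genes. The pericyte gene Kcnj8 was lower, at 2.66, 2.06 and 3.03 CPM in APB5 against 3.48 to 3.94 CPM in IgG. Endothelial genes (10) were at 294 to 358 CPM in APB5 and 201 to 295 elsewhere. Pigment epithelium genes (8) were at 92.5, 107 and 690 CPM in APB5 and 49.5 to 191 elsewhere. Lens genes (9) were at 5.09 to 161 CPM in APB5 and 6.45 to 2077 elsewhere. Müller glia genes (8) overlapped, at 3473 to 4350 CPM in APB5 and 3537 to 4689 elsewhere. The part of any of these cell types in the levels of the members was not tested.

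Epithelia and innate lymphoid and mast cells, which are known for amphiregulin, were represented by their own lists. Corneal and conjunctival genes (12) summed to 5.10, 5.48 and 36.6 CPM in APB5 and 2.92 to 12.2 in the other libraries, and 1 of the 12 averaged over 1 CPM in APB5. Of the defining keratins, Krt5 had no count in any APB5 library, Krt14 had 0, 0 and 1, and Krt12 had 15, 15 and 69 against 10 to 160 elsewhere. The high sum of replicate 3 was mostly Perp (31.8 CPM). Dsp, which encodes the desmosome protein desmoplakin, was at 2.51 CPM (168 counts) in the same library and at no more than 0.602 CPM in the 9 libraries outside APB5; both genes were chosen for mention after their values were seen. Mast and innate lymphoid genes (8) summed to 226, 256 and 121 CPM in APB5 and 165 to 351 elsewhere, with 2 of the 8 averaging over 1 CPM in APB5. These sums were almost wholly Rora (218, 248 and 109 CPM in APB5), a gene that the retina itself expresses. Of the more specific genes, Il1rl1 had 3, 10 and 40 counts in APB5 against 2 to 12 elsewhere, and Gata3 had 1, 0 and 19 against 0 to 4, so both were highest in APB5 replicate 3. The mast cell protease genes Cpa3, Cma1 and Tpsb2 had at most 12 counts in any library. Neutrophil and T cell genes (9) summed to 0.895 to 5.86 CPM in APB5 and 0.839 to 1.49 elsewhere, with none averaging over 1 CPM.

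**Figure D3:**
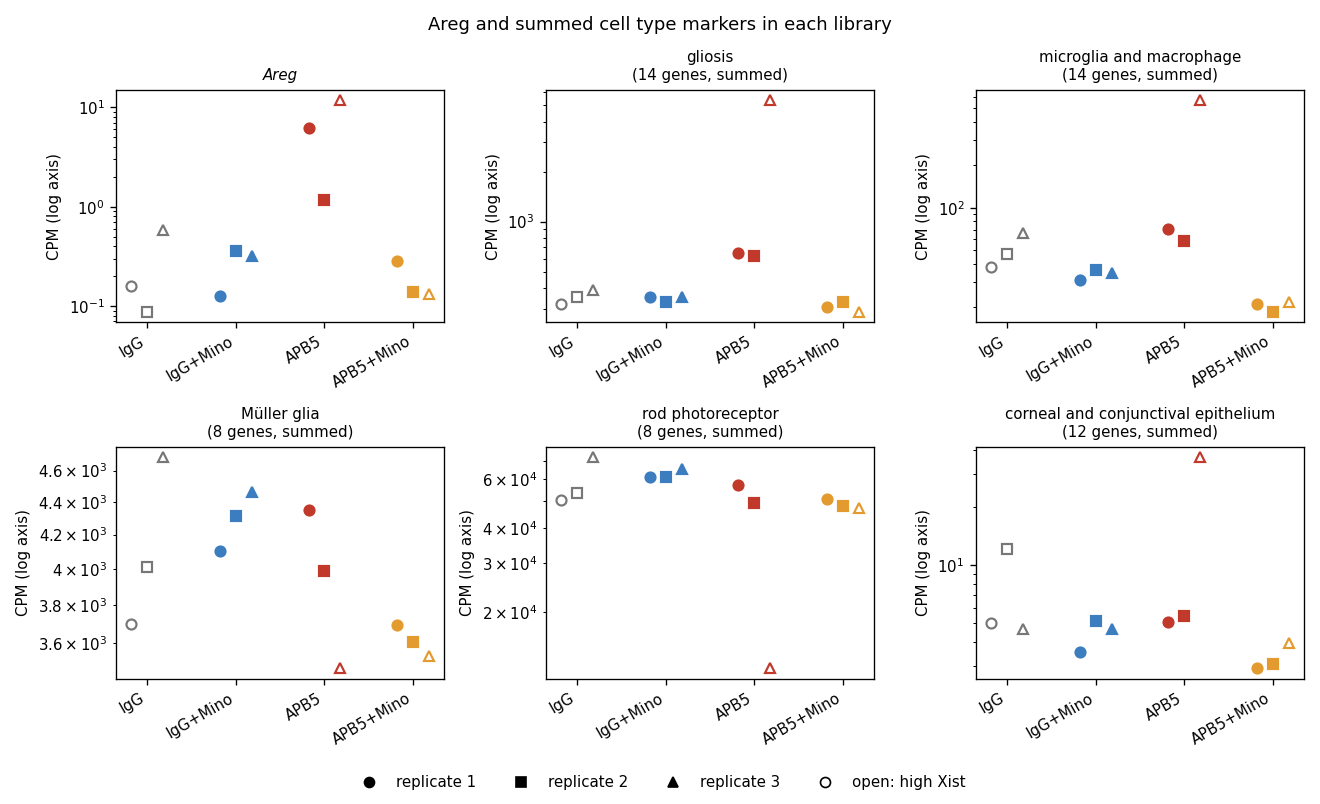
Areg and the summed levels of 5 marker lists in CPM (log axes) in each of the 12 libraries by group; points are libraries, shaped by replicate and open where Xist is high. The gliosis sum is highest in the 3 APB5 libraries, like Areg, and APB5 replicate 3 is the highest for gliosis and microglia and the lowest for rods.

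The other genes of the pathway were read from lists that exclude the members, 84 genes of which 83 were tested. A gene was called where the adjusted p-value of edgeR's quasi-likelihood test was 0.05 or less and the fitted level differed by 1 or more on the log2 scale. For APB5 against IgG none of the 83 was called by edgeR, and neither was any other gene (0%), whereas DESeq2 called 2. At an unadjusted p-value of 0.05 or less with the same fold 10 were higher and 0 lower, beside 3.18% and 0.482% of all genes tested. Without overlap of the libraries 18 were higher and 0 lower, beside the 7.79% and 7.89% given above. For APB5+Mino against APB5, 6 of the 83 fell and 0 rose, beside 0.819% and 0.838% of all genes (1.66% in both directions). For IgG+Mino against IgG none was called by edgeR (0.0298% of all genes, 0.0199% higher and 0.00993% lower) or DESeq2, and 1 was higher and 0 lower at the unadjusted p-value with the fold (0.397% and 0.462% of all genes). Between the 2 minocycline groups 1 rose and 9 fell, beside 0.878% and 0.349% of all genes (1.23% in both directions), and the unadjusted counts were 1 and 10 (1.57% and 0.808%). In the interaction none was called by edgeR (0.0141% of all genes, each of them lower and 0% higher) and 6 by DESeq2, and 0 were higher and 17 lower at the unadjusted p-value with the fold (2.54% and 4.56% of all genes). Counts by DESeq2 are given without its share of all genes, and nothing is read from them. The same thresholds rest on the values by which the members were chosen, so their calls are not described.

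Among receptors and neuregulins (Erbb4 and Nrg1 to Nrg4, the ERBB3 and ERBB4 ligands) none of 5 passed the test in any comparison. Nrg1 had a log2 fold change of 0.41 ± 0.13 for APB5+Mino against APB5 (edgeR quasi-likelihood test, adjusted p = 0.0758). Genes for ligand shedding and trafficking were uncalled too, 0 of 9 in each comparison. Adam17, the main sheddase of amphiregulin, which is named after its values were seen, spanned 17.9 to 22.3 CPM over the 12 libraries. Timp3, an inhibitor of ADAM17, was at 165, 163 and 519 CPM in APB5 and 76.7 to 132 CPM elsewhere (log2 fold change 1.42 ± 0.47 against IgG, adjusted p = 0.664, and 0.62 without APB5 replicate 3). Rhbdf2, which encodes the iRhom2 that carries ADAM17 to the surface, was lower in APB5+Mino than in IgG+Mino by less than the fold threshold (−0.54 ± 0.12, adjusted p = 0.0364).

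In the adaptors and RAS-ERK cascade (16 genes), the PI3K-AKT, PLC and STAT branch (12) and the receptor and ERK inhibitors (17) no gene was called in any comparison either. Several passed the adjusted p without the fold. For APB5+Mino against APB5, the receptor ubiquitin ligase gene Cbl (0.80 ± 0.16, adjusted p = 0.0476) and Lrig2 (0.71 ± 0.13, adjusted p = 0.0461) were higher and Hras was lower (−0.61 ± 0.13, adjusted p = 0.0497). Stat3 was highest in APB5, at 135, 163 and 261 CPM against 61.0 to 122 CPM in all other libraries, with a log2 fold change of 1.07 ± 0.31 against IgG (adjusted p = 0.664), or 0.74 without APB5 replicate 3. Errfi1, whose product MIG6 inhibits EGFR, was at 47.6, 38.6 and 89.5 CPM in APB5 and 26.6 to 37.1 in IgG (0.88 ± 0.32, adjusted p = 0.664). Without APB5 replicate 3 this was 0.42, and over the 9 libraries outside APB5 the range was 26.6 to 41.3 CPM, which overlaps APB5 replicate 2.

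Genes that ERK signaling induces (17, a list that shares genes with an immediate early list used earlier on these data) showed the pathway's only calls, together with YAP targets. All 17 had a positive log2 fold change for APB5 against IgG, with a median of 1.03 beside −0.0024 over all genes, but none was called by edgeR (6 were higher at an unadjusted p-value with the fold, beside 3.18% of all genes), and the median was 0.31 without APB5 replicate 3 and 1.91 without IgG replicate 3. Without APB5 replicate 3, Fos (−0.32), Egr1 (−0.56), Ier2 (−0.51), Ier3 (−0.27) and Dusp1 (−0.16) turned negative and the others stayed positive. DESeq2 called Fosl1 and Myc. Fosl1, which encodes the AP-1 subunit FRA-1, was at 3.16, 0.986 and 11.6 CPM in APB5 and 0.175, 0.402 and 0.397 CPM in IgG. Its order among the APB5 libraries (replicate 3, then 1, then 2) was that of Areg, Hbegf, Fos, Junb and Egr1. Etv4 of the same list ran otherwise, at 11.5, 9.60 and 6.35 CPM in replicates 1 to 3. The share of all genes with this order was not counted, so nothing is read from it.

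For APB5+Mino against APB5, 5 of the 17 fell, beside 0.819% of all genes, and all 17 had a negative value, with a median of −2.12 beside −0.02 over all genes. Without APB5 replicate 3, Fosl1 (0.03) and Ier3 (0.28) turned positive and the others stayed negative. Egr1, a zinc finger factor of the immediate response, was at 267, 139 and 1069 CPM in APB5 and 26.4, 28.9 and 36.2 CPM in APB5+Mino (−4.04 ± 0.78, edgeR quasi-likelihood test, adjusted p = 0.0471). Its log2 fold change was −2.74 without APB5 replicate 3. Junb (−2.97, adjusted p = 0.0461), Maff (−2.54, adjusted p = 0.0461), Dusp1, a phosphatase of MAP kinases (−1.71, adjusted p = 0.0433), and Atf3 (−1.63, adjusted p = 0.0461) fell as well, and so did 1 of 7 tested YAP targets, Ccn1, which encodes a matricellular protein (−3.01, adjusted p = 0.0430). In the blocked fit their log2 fold changes were between −3.50 (Egr1) and −1.56 (Atf3) with an adjusted p of 0.0641 for all 6, and no pathway gene was called. None was called without APB5 replicate 1 or any 1 APB5+Mino library, 18 were called without APB5 replicate 2 and 13 without APB5 replicate 3, and the largest adjusted p-value of the 6 over all alternatives was 0.214. The share of all genes called in these fits is not given here, so nothing is read from the 18 and the 13.

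Genes of this list also differed between the 2 minocycline groups, in which the libraries of Areg overlapped. Of the 17 genes 7 fell (Dusp1, Egr1, Egr2, Fos, Ier2, Junb and Maff), beside 0.349% of all genes, as did 2 of 7 YAP targets (Ccn1 and Ccn2), with log2 fold changes from −2.96 for Egr1 to −1.01 for Ier2 and adjusted p-values from 0.0125 to 0.0455. Fosl1 alone rose (1.42 ± 0.35, adjusted p = 0.0394), at 2.09, 3.11 and 1.20 CPM in APB5+Mino against 0.652, 0.744 and 0.928 CPM in IgG+Mino. In the libraries low in Xist none of these 10 genes was called, and none was in a fit of all 12 libraries or without IgG+Mino replicate 3, APB5+Mino replicate 2 or APB5+Mino replicate 3. The transcripts varied within groups, as IgG replicate 3 had 712 CPM of Egr1 against 90.9 and 99.5 CPM in replicates 1 and 2, and it also had the most Areg in its group.

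**Figure D4:**
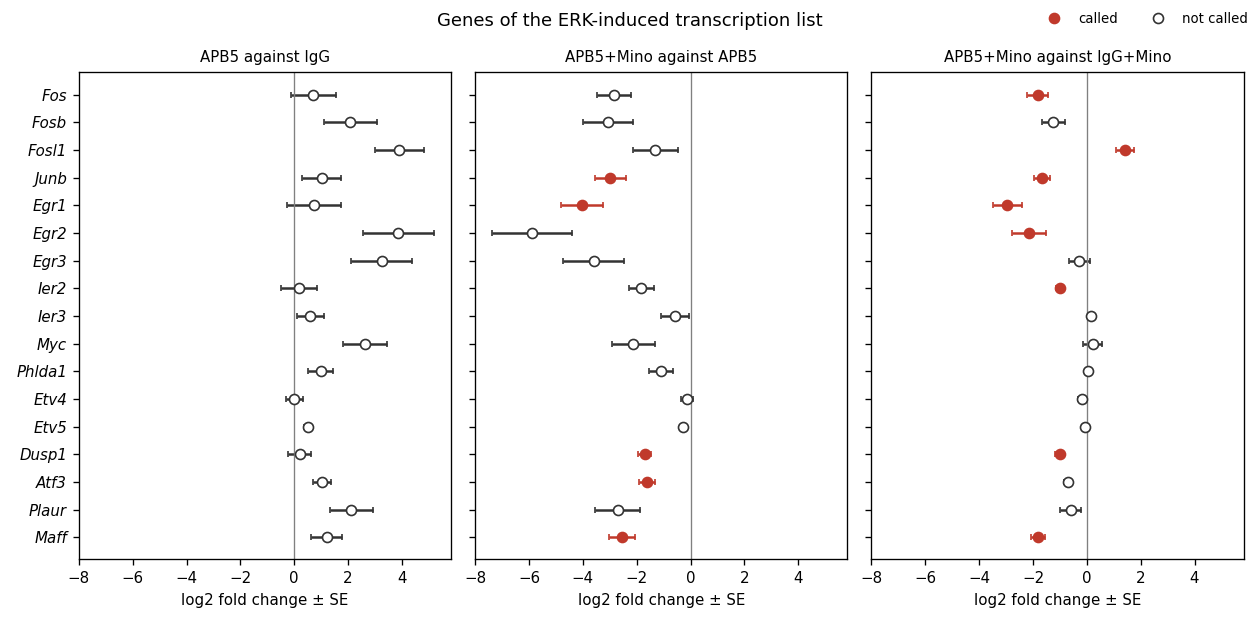
Log2 fold change with standard error of the 17 genes of the ERK-induced transcription list in 3 comparisons, filled where the gene was called (adjusted p-value 0.05 or less, log2 difference 1 or more). No gene is called for APB5 against IgG, 5 are called lower for APB5+Mino against APB5, and 7 lower and 1 (Fosl1) higher for APB5+Mino against IgG+Mino.

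Likeness to Areg was described by Pearson's r of log2 CPM over the 12 libraries, among 15812 genes with a mean of at least 1 CPM. The libraries share 4 groups and APB5 replicate 3, so r carries no p-value. The 8 genes most like it were Neurod6 (r = 0.95), Gstm1 (0.94), C4b (0.94), Entpd2 (0.93), F3 (0.93), Ccdc71l (0.93), Pdlim3 (0.93) and Lif (0.93), and r was 0.87 to 0.97 without APB5 replicate 3. For 7 of the 8, the exception being Lif, all APB5 libraries were above all others. C4b, a complement component, was at 62.4, 68.0 and 296 CPM in APB5 and 6.96 to 14.0 CPM elsewhere. F3, which encodes tissue factor, was at 19.6, 12.1 and 55.1 CPM in APB5 and 7.16 to 9.61 elsewhere, in the same order over the APB5 libraries as Areg. Lif, a cytokine of the injured retina, was at 5.98, 2.56 and 34.2 CPM in APB5 and 0.823 to 2.78 elsewhere. Among the members r with Areg was 0.82 for Hbegf and Ereg, 0.78 for Tgfa, 0.67 for Btc, 0.63 for Erbb2, 0.15 for Egfr and −0.67 for Egf. Of the 15812 genes compared, 319 had a higher r than Hbegf, 628 than Tgfa, 1574 than Btc and 1984 than Erbb2.

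The genes that flank the ligand block on chromosome 5, named here after their values were seen, did not share the whole pattern of Areg. Mthfd2l, a mitochondrial folate enzyme gene at 91078920-91169231, was at 7.36 to 8.57 CPM in IgG and 7.23 to 8.93 CPM in APB5 (log2 fold change 0.02 ± 0.18, edgeR quasi-likelihood test, adjusted p = 0.978). Parm1, beyond Btc at 91665474-91774753, was at 3.06 to 4.88 CPM in IgG and 6.94 to 8.26 CPM in APB5 (0.98 ± 0.24, edgeR quasi-likelihood test, adjusted p = 0.664). These libraries did not overlap, as for Areg. Its level in APB5+Mino (6.87 to 8.50 CPM) overlapped that in APB5. In IgG+Mino Parm1 was at 4.04, 8.27 and 8.35 CPM, so some libraries without APB5 were as high.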

How the data were processed

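RNA-Seq was performed on 12 retinal libraries, 3 in each of 4 groups given by the sample titles. Per the labels and the study's methods, the authors prepared stranded poly-A libraries, sequenced single reads, converted them with bcl2fastq 2.20 and counted them with the DRAGEN RNA pipeline on mm39 with NCBI annotation. The DRAGEN version and its use of strand are not given in the sources used here. The values deposited by the authors are counts of reads per gene, not normalized, and 3 repeated columns were not used. The authors' own comparison tables, with fold changes and p-values, were not used either.

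CPM with TMM factors and tests were computed from the counts with R 4.3.3 and edgeR 4.0.16 (limma 3.58.1). Genes passed filterByExpr, and each pair of groups was fitted on its 6 libraries by the quasi-likelihood test (two-sided, prior count of 2) with Benjamini-Hochberg adjustment over all genes tested. Calls required an adjusted p-value of 0.05 or less and a log2 difference of 1 or more. The scripts were tested on simulated data. CPM per kilobase used merged GENCODE exons (GRCm39).

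The members and gene lists were chosen with earlier results of these data known. Named genes were the members, called pathway genes, from each pathway list the 2 with the smallest p-value in each comparison, Xist and Pdgfrb, and the 8 most like Areg. Not all of them are described. Replicate numbers recur across groups. Deviations from the group means of same-numbered APB5 and APB5+Mino libraries correlated by 0.134 to 0.182. Those of their other pairs correlated by −0.157 to 0.0194, so the numbers may pair these libraries. No label says so, and same-numbered libraries of these groups also had the same Xist class. Replicates 1 and 2 of both groups were all low in Xist, so their differently numbered pairs shared that class as well. Those pairs correlated by no more than 0.0194. What the numbers mark was not tested, and the main fits do not use a pairing. In each other comparison a same-numbered pair was under 0.1. Alternatives were RLE scaling, 2 other count filters, DESeq2 1.42.0, all 12 libraries, a replicate block, Xist as a covariate, and each library left out. A fit of the libraries low in Xist was added after seeing the data. With 3 libraries against 3, an exact permutation test cannot go below p = 0.1, so none was used.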

Additional observations from a re-analysis of the deposited data

How the results depend on the processing

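Of 428 log2 fold changes of members under an alternative, 415 moved by less than 1 SD of the replicates and 13 by more, and no called value changed sign. Calls depended on the processing, and the cause was not tested unless named. Calls of members rest on the values that chose them and are given only as counts, from which nothing is read. Counts of pathway genes under an alternative are given without the share of all genes called there, so nothing is read from them either. For APB5 against IgG, where neither members nor pathway genes were called, DESeq2 called 1 and 2 and Xist as a covariate in all 12 libraries 3 and 13. For APB5+Mino against APB5 (1 member and 6 pathway genes), no count filter gave 2 and 10, DESeq2 2 and 15, all 12 libraries 2 and 17, and the Xist covariate 2 and 16. At least 10 counts in every library gave 0 members. The libraries low in Xist gave 11 pathway genes. With the replicate block, in this comparison whose numbers may pair libraries, both counts were 0. Leaving out 1 library gave 0 to 3 members and 0 to 18 pathway genes. For APB5+Mino against IgG+Mino (10 pathway genes), all 12 libraries, the Xist covariate and the libraries low in Xist each gave 0, and leaving out 1 library gave 0 to 10. In the interaction, where none was called, DESeq2 called 1 member and 6 pathway genes, the Xist covariate 2 and 10, and leaving out 1 library gave 0 to 1 and 0 to 2.

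In the comparisons whose numbers showed no sign of pairing the block gave 0 members, and 9 pathway genes for APB5+Mino against IgG+Mino. IgG+Mino against IgG had 0 calls of either kind in every alternative. Depth limits Ereg and Epgn, which stayed near the floor of 3 counts in most libraries, and Areg outside APB5. DESeq2 gave no adjusted p-value for some genes, Egr2 among them, and these were not counted as lost.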
